A study of Mus musculus with 4 samples.

Results

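The genes described here encode proteins that build the node of Ranvier and its flanking domains, the gaps in the myelin sheath where a nerve impulse is renewed. They were chosen by name, as 10 genes, with earlier results of these data known. Every probe set whose platform annotation gives 1 of these symbols alone was taken. Of the 10, 9 had probe sets, 26 in all, among the 18193 genes and 45037 probe sets other than controls. No probe set was assigned to Gldn, the gene of gliomedin, so it was not analysed here.

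Total RNA of freshly dissected mouse dorsal root ganglia, which hold the cell bodies of sensory neurons, was hybridised to 4 Affymetrix mouse arrays. The labels place 2 arrays at 1 level of the ganglia (the sample-1 level) and 2 at the other (the sample-2 level). The labels name neither level. Within each level they end in le1 and le2, which are read here as array numbers 1 and 2, since their meaning is not given. They give no strain, genotype, age, sex or treatment beyond the dissection. Whether the arrays within a level held RNA of separate animals is not stated, so the p-values rest on an array-to-array spread that may be technical. Values are intensities on a linear scale that had been brought to a trimmed mean of 150.0 on each array, with medians of 25.9 to 27.3. Brightness cannot be compared between probe sets as an amount of transcript, so for a level difference each is set against itself on the other arrays. Probe sets are set side by side to pick the brightest of a gene, in within-array ratios and in summed intensities. The ratios and sums are descriptions.

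In a myelinated sensory axon, the node holds clustered sodium channels that are tied to the membrane skeleton by ankyrin G and βIV spectrin. On each side the paranode seals the myelin loops to the axon through Cntnap1 and Cntn1 on the axon and a glial form of neurofascin. Beyond it lies the juxtaparanode, where Cntnap2 and Cntn2 hold shaker-type potassium channels under the myelin. The comparison asked whether the transcripts of these proteins differed between ganglia of the 2 levels.

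The juxtaparanodal gene Cntnap2 was lower at the sample-2 level by its brightest probe set, and it was the 1 gene of the 9 with a probe set past the threshold. Its partner Cntn2 lay the other way by its brightest probe set, from 242 ± 22.5 to 344 ± 11.6 (SD, n = 2), but did not pass. By the bright probe sets of Cntn1, a paranodal protein, and Nrcam, a nodal adhesion molecule, the levels overlapped. Of the 26 probe sets, 21 had a mean above the filter on low signal, which corresponds to an intensity of 14.3, and were tested. Of these, 1 (4.76%) passed an adjusted p of 0.05 (limma, Benjamini-Hochberg over 27022 probe sets), against 0.622% of all tested probe sets in either direction and 0.400% in the lower direction. An unadjusted p under 0.05 was found for 6 of the 21 (28.6%), 4 higher and 2 lower, against 10.9% of all. The arrays of the levels did not overlap for 13 of the 21 (61.9%), 7 higher and 6 lower, against 41.2% of all. Probe sets of a gene share their transcript, so the 21 are not independent. The genes were chosen with earlier results of these data known, so the shares are descriptions and no excess over all probe sets is drawn from them. For a single value, the exact permutation test of 2 against 2 arrays cannot go below p = 0.333.

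**Figure D1:**
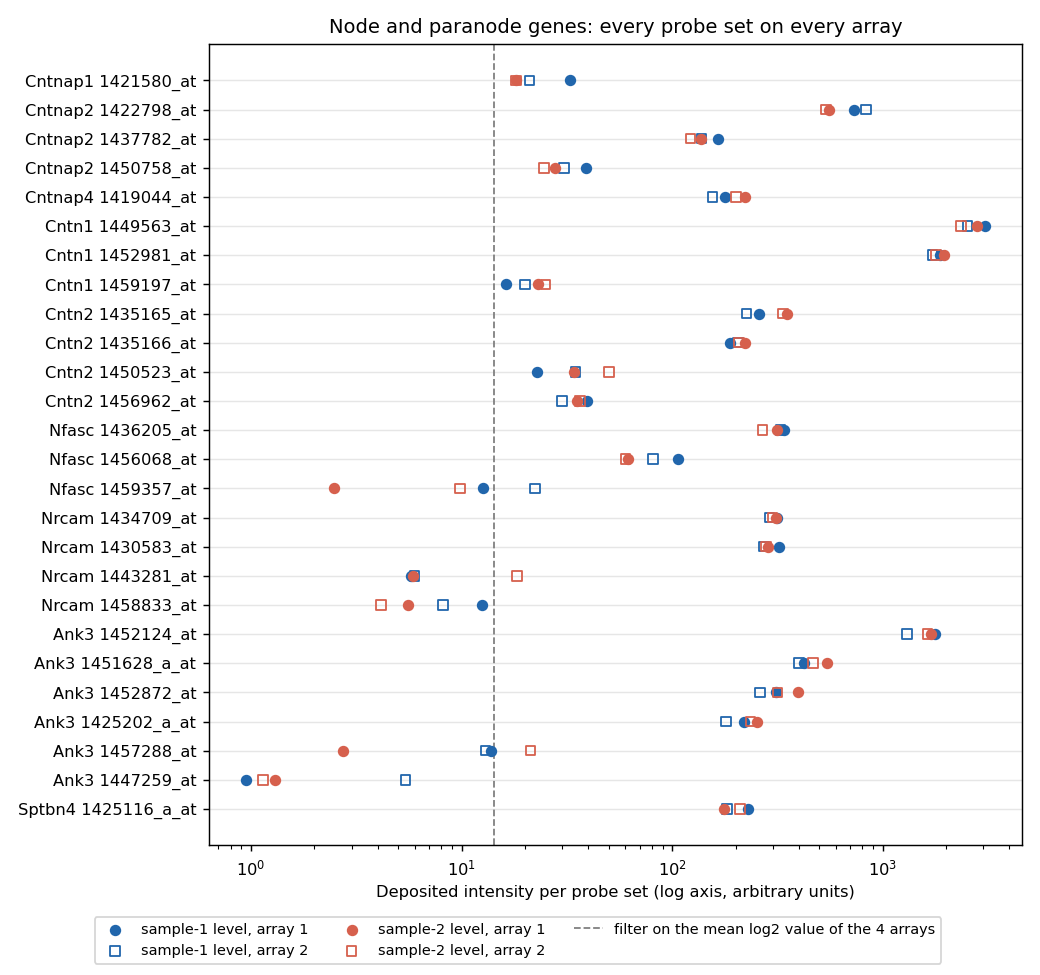
Deposited intensity (log axis, arbitrary units) of the 26 probe sets on the 4 arrays, with colour for the level and symbol for the array number. The dashed line marks the filter at 14.3, applied to the mean log2 value of the arrays. For Cntnap2 1422798_at both sample-1 arrays lie above 727 and both sample-2 arrays under 557.

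Cntnap2 encodes the neurexin-like membrane protein that organises the juxtaparanode. Its probe set 1422798_at measured 727 and 834 for the sample-1 level and 556 and 539 for the sample-2 level. Both sample-2 arrays lay below both sample-1 arrays, and the gap was wider than the spread within either level. The means were 781 ± 75.7 and 547 ± 12.4 (SD, n = 2). On the log2(intensity + 16) scale it fell by 0.50 ± 0.10 (SE; 95% interval -0.71 to -0.29), a change of -29.1%, with an adjusted p of 0.0474 in limma. Its other probe sets had smaller differences that did not pass. Probe set 1437782_at measured 166 and 138, then 137 and 122, a difference of -0.20 (95% interval -0.51 to 0.11, limma adjusted p = 0.663). Probe set 1450758_at measured 38.8 and 30.7, then 27.8 and 24.6, a difference of -0.26 (95% interval -0.74 to 0.22, limma adjusted p = 0.735). In all 3 the sample-2 arrays lay below the sample-1 arrays, but for 1437782_at the nearest arrays of the levels, 138 and 137, were close to equal. The mean of the 3 probe sets differed by -0.32 ± 0.10 (SE, limma adjusted p = 0.248), which did not pass.

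The call for Cntnap2 1422798_at lay close to the threshold. With an array left out in turn the limma adjusted p was 0.0453 without sample-1 array 1. It was 0.244 when sample-1 array 2 was left out, 0.0845 for sample-2 array 1 and 0.165 for sample-2 array 2, with the difference between -0.59 and -0.40. The call also ended with a pseudocount of 1 (adjusted p = 0.0541), quantile normalization (0.056), arrays centred on their medians (0.0596), no filter (0.306), a spread without the intensity trend (0.471) and a minimum of 1.5-fold (adjusted p = 1), while the direction held in each.

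**Figure D2:**
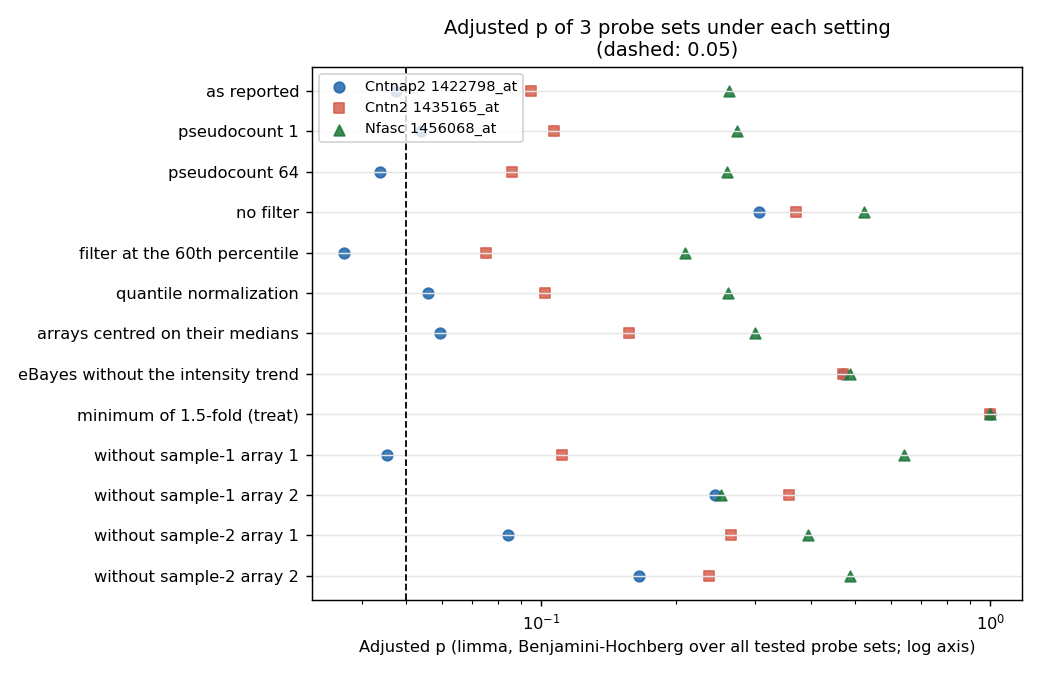
Adjusted p (log axis) of 3 probe sets as reported and under other settings, each without a block for the array number. The dashed line marks 0.05. Not drawn are the fit with that block, the fit without probe sets ending in _x_at or _s_at, and the fit on the mean of a gene's probe sets. With the block the limma adjusted p of Cntn2 1435165_at was 0.0109. Cntnap2 1422798_at lies on both sides of the line, from 0.0364 to 1, and neither Cntn2 1435165_at nor Nfasc 1456068_at reaches it in any setting drawn.

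Cntn2 encodes an immunoglobulin-family contactin, anchored to the membrane by a lipid, that binds Cntnap2 in the axon and itself on the glial side. Its brightest probe set, 1435165_at, measured 258 and 226 for the sample-1 level and 352 and 336 for the sample-2 level, with no overlap. The difference was 0.48 ± 0.11 (SE; 95% interval 0.23 to 0.73), with a limma adjusted p of 0.0948. Probe set 1435166_at measured 188 and 206, then 222 and 207. These ranges were separated by less than 2 units, and the difference was 0.12 (95% interval -0.15 to 0.38). The dim probe sets gave 22.9 and 34.7, then 34.2 and 50.0, for 1450523_at, and 39.3 and 30.0, then 35.5 and 36.5, for 1456962_at. The levels overlapped in both, and the 95% intervals were -0.14 to 0.88 and -0.42 to 0.50. All 4 differences lay above 0, and none passed.

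The probe sets of Cntn2 were also set against its brightest one, 1435165_at, within each array on the log2(intensity + 16) scale, as a description with no test. Probe set 1435166_at lay at -0.43 and -0.13 relative to it for the sample-1 level and at -0.63 and -0.65 for the sample-2 level, with no overlap. For 1456962_at the values were -2.31 and -2.39, then -2.84 and -2.74, with no overlap, and for 1450523_at they were -2.82 and -2.26, then -2.87 and -2.41, with overlap. The 95% intervals of the level differences of 1435165_at and 1435166_at overlapped. For Cntnap2, 1437782_at lay at -2.03 and -2.47 relative to 1422798_at for the sample-1 level and at -1.91 and -2.01 for the sample-2 level, and 1450758_at at -3.76 and -4.19, then -3.71 and -3.77. The Cntnap2 values of 1437782_at did not overlap between the levels, by a narrow margin, while those of 1450758_at did. Such ratios also did not overlap for Nfasc 1456068_at, Cntn1 1452981_at, Nrcam 1430583_at and Ank3 1425202_a_at. They overlapped for Cntn1 1459197_at and for Ank3 1451628_a_at and 1452872_at. Ratios without overlap were thus also seen in other members. The share of such ratios over all genes was not computed, so no result is drawn from them.

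Cntnap1 encodes the axonal protein that forms the septate-like junctions of the paranode together with Cntn1. Its 1 probe set, 1421580_at, was dim and measured 32.9 and 21.0 for the sample-1 level and 18.2 and 18.1 for the sample-2 level. The sample-1 arrays lay further apart than the means of the levels, 26.95 and 18.1. The difference was -0.32 with a wide 95% interval, -0.87 to 0.23 (limma adjusted p = 0.715), and the signal this near the filter limits what could be detected.

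Cntn1, the contactin that carries Cntnap1 to the axon surface, was bright in 2 of its 3 probe sets. Probe set 1449563_at gave 3077 and 2527 for the sample-1 level and 2809 and 2361 for the sample-2 level, with overlap. Its difference was -0.11 (95% interval -0.34 to 0.11, limma adjusted p = 0.753). Probe set 1452981_at gave 1871 and 1727, then 1947 and 1790, also with overlap. Its difference was 0.05 (95% interval -0.12 to 0.23, limma adjusted p = 0.866), so that the interval spans ratios of 0.921 to 1.17. The dim probe set 1459197_at gave 16.3 and 20.03, then 23.0 and 25.0, a difference of 0.23 (95% interval -0.31 to 0.76). The sign thus differed between the probe sets of Cntn1, and neither direction passed.

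Nfasc encodes neurofascin, whose neuronal form lies at the node and whose glial form lies on the paranodal loops; the annotation used here does not tell which form a probe set reads. Probe set 1456068_at measured 107 and 81.3 for the sample-1 level and 61.4 and 59.9 for the sample-2 level, with no overlap. The difference was -0.51 ± 0.17 (SE; 95% interval -0.88 to -0.14), as large as that of Cntnap2, but at this lower signal the limma adjusted p was 0.262. The brighter probe set 1436205_at measured 340 and 327, then 316 and 269, a difference of -0.18 (95% interval -0.43 to 0.07, adjusted p = 0.613). Probe set 1459357_at gave 12.6 and 22.3, then 2.47 and 9.81, under the filter, and was not tested. All 3 lay lower at the sample-2 level, and neither of the tested ones passed.

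Nrcam encodes an adhesion molecule of the same L1 family, which binds gliomedin at the node. Probe set 1434709_at measured 313 and 290 for the sample-1 level and 312 and 299.9 for the sample-2 level, and the levels overlapped. The difference was 0.02, with a 95% interval of -0.22 to 0.25 (limma adjusted p = 0.973). Probe set 1430583_at measured 322 and 273, then 284 and 278, a difference of -0.07 (95% interval -0.33 to 0.18). The intervals of these probe sets span ratios from 0.796 to 1.19, so a larger change lay outside them. The other probe sets, 1443281_at and 1458833_at, ranged from 4.15 to 18.3 and were not tested.

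Ank3 encodes ankyrin G, the adaptor that binds sodium channels and neurofascin at the node. Its brightest probe set, 1452124_at, measured 1766 and 1302 for the sample-1 level and 1695 and 1629 for the sample-2 level, which lay between them. The difference was 0.13 (95% interval -0.12 to 0.38, limma adjusted p = 0.752). The 3 other tested probe sets did not overlap between levels. They gave 425 and 401, then 543 and 467, for 1451628_a_at, with a difference of 0.28 (95% interval 0.05 to 0.51). Probe set 1452872_at gave 310 and 262, then 395 and 316, a difference of 0.29 (95% interval 0.01 to 0.58), and 1425202_a_at gave 218 and 180, then 252 and 236, a difference of 0.28 (95% interval -0.0019 to 0.56). Their limma adjusted p lay between 0.345 and 0.464, so none passed. Sample-1 array 2 was the lowest of the 4 arrays for each of these 4 probe sets. The mean of the tested Ank3 probe sets differed by 0.24 ± 0.10 (SE, limma adjusted p = 0.39). A further 2 probe sets, 1457288_at and 1447259_at, ranged from 0.943 to 21.3 and were not tested.

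Sptbn4 encodes βIV spectrin, which links ankyrin G to the actin skeleton at the node. Its probe set 1425116_a_at measured 229 and 182 for the sample-1 level and 176 and 210 for the sample-2 level. The levels overlapped, with a difference of -0.08 (95% interval -0.39 to 0.23, limma adjusted p = 0.89). Cntnap4 encodes a relative of Cntnap1 and Cntnap2 that is known from synapses of interneurons rather than from the node. Its probe set 1419044_at measured 178 and 156 for the sample-1 level and 222 and 201 for the sample-2 level, with no overlap. The difference was 0.32 ± 0.13 (SE; 95% interval 0.04 to 0.59), and the limma adjusted p of 0.383 did not pass. Cntnap4 and the brightest Cntnap2 probe set lay on opposite sides of 0, with unadjusted 95% intervals that did not overlap. The intervals of Cntnap2 1437782_at (-0.51 to 0.11) and 1450758_at (-0.74 to 0.22) did overlap that of Cntnap4. The contrast between the genes was not tested.

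**Figure D3:**
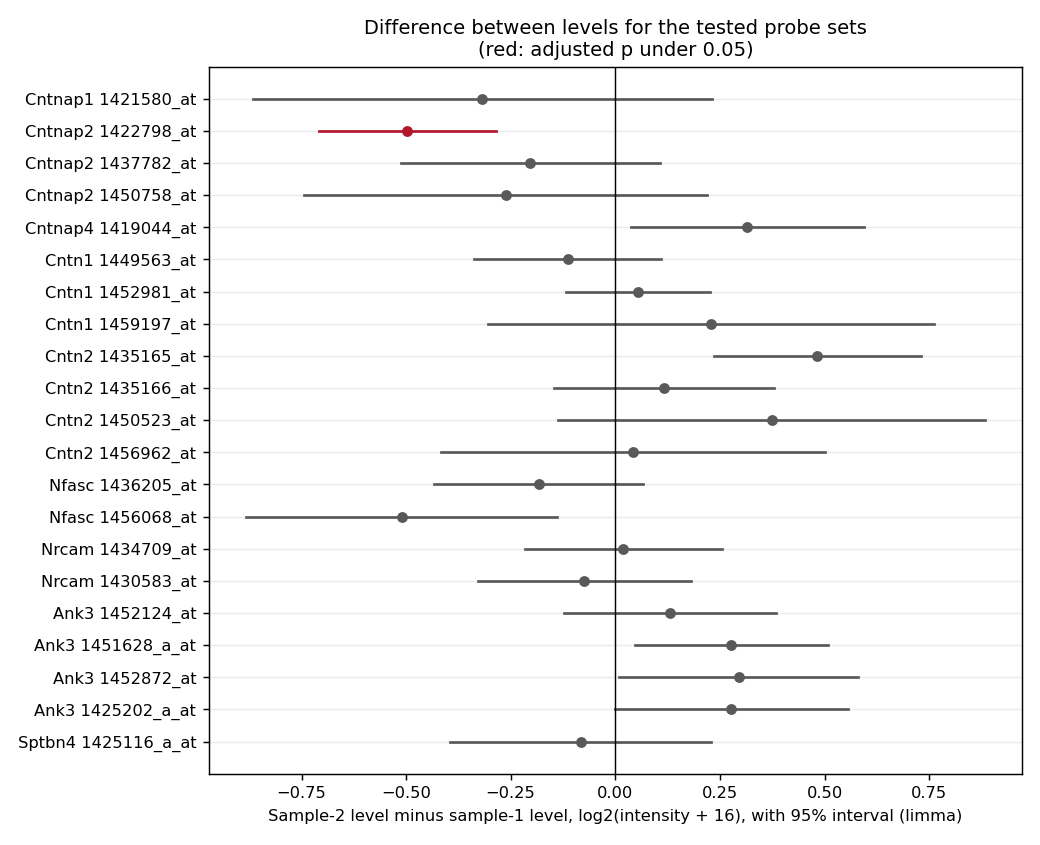
Difference between levels on the log2(intensity + 16) scale for the 21 tested probe sets, as points with 95% intervals from limma. Red marks the 1 probe set with an adjusted p under 0.05, Cntnap2 1422798_at at -0.50; the points lie between -0.51 and 0.48.

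Of the 21 tested differences 12 lay above 0 and 9 below, with a median of 0.04 against 0.0046 over all tested probe sets. By each gene's brightest tested probe set, 4 of the 9 genes lay above 0 and 5 below, with a median of -0.08 against -0.0059 over 13543 genes. The members thus did not lie on 1 side.

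The proteins that work with them were taken from 6 lists of 81 genes, of which 70 had a tested probe set. Each gene is given by its brightest one. Beside the counts of unadjusted p under 0.05 in these lists, the share over all tested probe sets was 10.9%. No such share over genes is given. At a limma adjusted p of 0.05 the share was 0.842% of genes by brightest probe set, against 0.622% of all tested probe sets. The 10.9% is therefore not a like measure for counts of genes. Of the 70, 2 passed, both lower, Pmp2 and Ugt8a of the myelin list, against 0.842% of all genes tested. Of 7 tested relatives in the contactin, Caspr and L1 families 0 passed in limma and 2 had an unadjusted p under 0.05, with a median difference of 0.10. L1cam, the founding member of the adhesion family of Nfasc and Nrcam, measured 2333 and 2398 for the sample-1 level and 3283 and 2898 for the sample-2 level, a difference of 0.38 (limma adjusted p = 0.0512). With a pseudocount of 64, quantile normalization or the filter at the 60th percentile, or without sample-2 array 2, it passed. Cntn4, a contactin of axon guidance, measured 59.5 and 59.1, then 24.3 and 40.4, a difference of -0.66 (adjusted p = 0.243).

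Of 8 tested nodal channel genes 0 passed, with a median difference of -0.0052. An unadjusted p under 0.05 in limma was found for 4, against 10.9% of all tested probe sets. Kcnk2, a leak potassium channel of the node, measured 119 and 104 for the sample-1 level and 165 and 175 for the sample-2 level (0.54, limma adjusted p = 0.118). Kcnk4, its relative with the same role, measured 40.02 and 49.3, then 36.0 and 19.3 (-0.50, adjusted p = 0.481). Scn8a, which encodes the main sodium channel of mature nodes and is given for that role, measured 705 and 655, then 611 and 559.7 (-0.21, adjusted p = 0.45). Its arrays did not overlap, and it did not pass. Other sodium channel subunit genes of the list lay on both sides of 0. Scn9a was higher (0.38, limma adjusted p = 0.116) and Scn4b lower (-0.32, adjusted p = 0.2), and neither passed. Of the 8 listed genes 4 lay above 0 and 4 below.

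Of 8 tested ankyrin, spectrin and Epb41 scaffold genes 0 passed and 2 had an unadjusted p under 0.05, with a median difference of -0.02. Epb41l2, a glial scaffold gene, measured 547 and 505 for the sample-1 level and 396 and 326 for the sample-2 level (-0.53, limma adjusted p = 0.0712). With an array left out in turn, it passed without sample-2 array 1 only. Ank2, ankyrin B, measured 1690 and 1485, then 2190 and 1900 (0.36, adjusted p = 0.12), with no overlap. Epb41l3, which encodes the scaffold that anchors Cntnap1 and Cntnap2 and is given for that role, measured 2415 and 2464, then 2866 and 2385 (0.10, adjusted p = 0.744), with overlap.

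Of 13 tested partners of the juxtaparanode 0 passed and 2 had an unadjusted p under 0.05, with a median difference of 0.0089. Kcna1 and Kcna2, the channel subunits that Cntnap2 holds in place, are given for that role. Kcna1 measured 2777 and 2395 for the sample-1 level and 2505 and 1899 for the sample-2 level (-0.24, limma adjusted p = 0.481). Kcna2 measured 988 and 961, then 1000.3 and 911 (-0.03, 95% interval -0.22 to 0.16). The levels overlapped for both. Kcna6, another subunit of that family, measured 285 and 306, then 557 and 392 (0.63, adjusted p = 0.0808). With an array left out in turn, it passed without sample-2 array 2 only. Lgi1, a secreted ligand of Adam22, measured 481 and 468, then 613 and 519 (0.24, adjusted p = 0.429).

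Of 16 tested genes of the nodal microvilli and matrix 0 passed and 2 had an unadjusted p under 0.05, with a median difference of -0.03. Dag1, the dystroglycan of Schwann cells, measured 963 and 814 for the sample-1 level and 733 and 615 for the sample-2 level (-0.39, limma adjusted p = 0.167). Tnr, a matrix protein of central nodes, lay near the filter and overlapped between the levels, at 11.7 and 19.0, then 16.7 and 33.9 (0.37, adjusted p = 0.7).

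Of 18 tested genes of internode adhesion and myelin 2 passed, both lower, against 0.546% of all genes tested. An unadjusted p under 0.05 in limma was found for 13, against 10.9% of all tested probe sets. The median difference was -0.42, with 14 below 0 and 4 above. Among those above were Cadm1 (0.33, limma adjusted p = 0.0813) and Cadm3 (0.20, adjusted p = 0.401), adhesion molecules of the internode named after their values were seen. Pmp2, a lipid carrier of peripheral myelin, fell from 959 and 780 for the sample-1 level to 223 and 121 for the sample-2 level (-2.28 ± 0.20, limma adjusted p = 0.000366). Ugt8a, the enzyme that makes the galactolipids on which paranodes depend, fell from 1193 and 855 to 651 and 456 (-0.87 ± 0.17, adjusted p = 0.0429). Both calls ended with no filter and without the intensity trend. That for Ugt8a also ended with a minimum of 1.5-fold, with the mean of its probe sets, with a pseudocount of 1, with quantile normalization, with arrays centred on their medians, and when either sample-1 array 1 or sample-2 array 2 was left out.

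**Figure D4:**
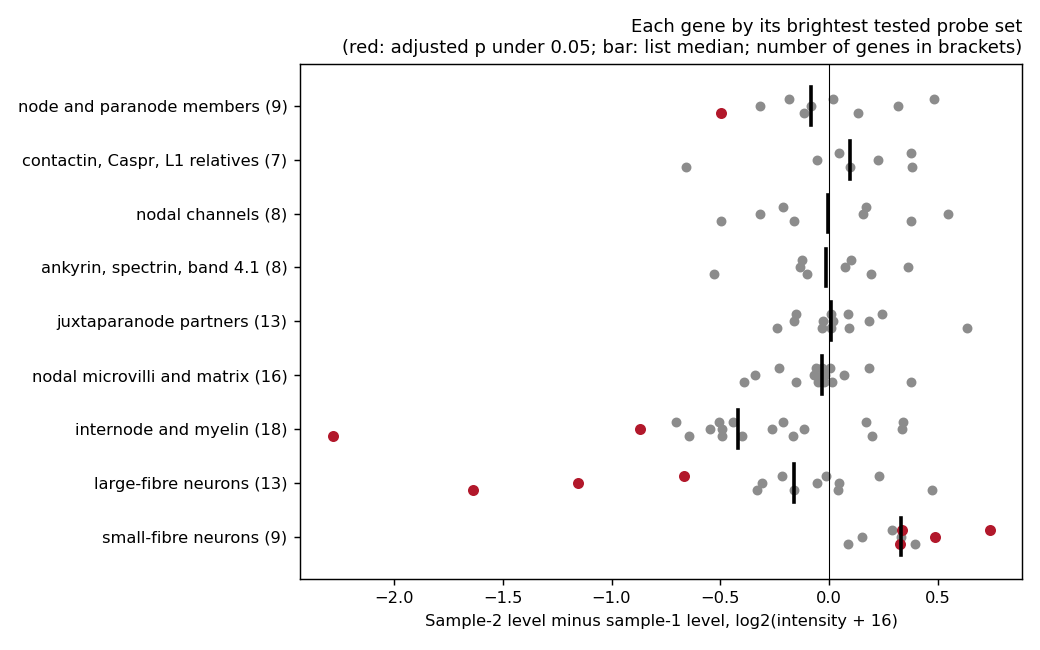
Difference between levels on the log2(intensity + 16) scale for every listed gene by its brightest tested probe set, in rows by list, with a bar at each list's median. The median is -0.42 for the internode and myelin list, -0.16 for the large-fibre list, 0.33 for the small-fibre list and between -0.08 and 0.10 for the node and paranode members and the other lists of partners; red marks an adjusted p under 0.05.

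Nodes occur on myelinated axons, so genes of large and small fibres were read from the same fit. Earlier results for many of these genes were known when the lists were written, so the counts are descriptions. Of 13 tested large-fibre genes 3 were lower, Pvalb, Calb2 and Asic1, with a median of -0.16, 9 below 0 and 4 above. The gene furthest above, Ntrk2, the receptor of brain-derived neurotrophic factor, differed by 0.47 (limma adjusted p = 0.0784) and was named after its value was seen. Of 9 tested small-fibre genes 4 were higher, Trpv1, Th, Ret and Tac1, with a median of 0.33. The background is 0.546% lower and 0.295% higher among all genes. Nefh, the heavy neurofilament of large axons and given for that role, measured 5637 and 5746 for the sample-1 level and 5330.5 and 4506 for the sample-2 level (-0.22, limma adjusted p = 0.302). In ganglion RNA, fewer cells of a type and less RNA per cell cannot be told apart.

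Beside the marker counts that follow, 0.546% of all genes passed lower and 0.295% passed higher. Sensory neuron markers were bright on all arrays. The 9 tested summed to 37969 and 39182 for the sample-1 level and to 41320 and 38071 for the sample-2 level. Of the 9, 0 passed in limma, and 1 had an unadjusted p under 0.05. Prph, Scn10a and Nefl among them are also in the fibre lists. The 8 tested markers of myelinating Schwann cells, all below 0 and with Pmp2 past the threshold, summed to 18934 and 17515, then 17104 and 13362. All 8 are also in the internode and myelin list above, so they are not a separate observation. The 9 skeletal muscle markers, all below 0 and with Myh2 past, summed to 1347 and 6996, then 1651 and 1124. The array with the high muscle sum, sample-1 array 2, also had the highest value of Cntnap2 1422798_at, 834. Without this array the difference of 1422798_at was -0.40. For Cntnap2 1437782_at and 1450758_at sample-1 array 2 lay below sample-1 array 1, at 138 against 166 and 30.7 against 38.8. Fibroblast and meningeal markers, 8 of 8 below 0 and 6 past, summed to 15079 and 13200, then 8756 and 8335. The 6 neutrophil markers, all higher and past, summed to 3246 and 3854, then 6523 and 8192. The 6 satellite glia markers, all below 0 and 0 of them with an unadjusted p under 0.05, summed to between 11503 and 12584. The 3 endothelial markers lay below 0 without passing (1 with an unadjusted p under 0.05), and of 2 tested red cell markers 1 was higher. Markers of central glia stayed dim, with a summed intensity of 133 to 194 over 4 tested genes. The part of these tissues in the differences of the node genes was not tested.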

How the data were processed

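The authors deposited 1 linear intensity per probe set and array; per the labels, total RNA was hybridised to Affymetrix mouse arrays. The software behind them is not given in the sources used here. The trimmed mean (2% cut from each end) was 150.0 on all 4 arrays, so they had been scaled to a common target. No detection calls were used.

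Values were taken as log2(intensity + 16), which understates changes of dim probe sets. The 64 controls were left out, and so were probe sets with a mean below the 40th percentile. The 27022 others were fitted with limma 3.58.1 in R 4.3.3 (lmFit, eBayes with an intensity trend, 2 residual and 9.71 prior degrees of freedom), as sample-2 minus sample-1 level with no covariate, and adjusted by Benjamini-Hochberg over all; the fit was tested on simulated data. Symbols came from the platform annotation (34945 probe sets with 1 symbol, 932 with several, 9160 with none), and 34741 gene IDs matched RefSeq (GRCm38.p6). The files name no genome build, so coordinates are not given. Members and lists were chosen with earlier results of these data known. All members were named; of each list, up to 4 genes past the threshold or, with none past, the 2 with the largest difference. Scn8a, Epb41l3, Kcna1, Kcna2 and Nefh, given for their roles, lie outside that rule. So do Scn9a, Scn4b, Cadm1, Cadm3 and Ntrk2, which were named after their values were seen. The fit was repeated under 15 other settings. The number of arrays limits the precision.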

Additional observations from a re-analysis of the deposited data

How the results depend on the processing

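The count of all probe sets past an adjusted p of 0.05, 168 as reported, was 4 with no filter, 104 with arrays centred on their medians, 1 without the intensity trend and 10 with a minimum of 1.5-fold, and 102 to 241 with an array left out in turn. The members past it, 1 as reported, numbered 0 with a pseudocount of 1, no filter, quantile normalization, centring, no intensity trend, a minimum of 1.5-fold or the mean of a gene's probe sets, and 0 to 1 with an array left out. The listed partner genes past it, 2 as reported, numbered 1 with a pseudocount of 1, centring or a minimum of 1.5-fold, 0 with no filter or no intensity trend, and 1 to 7 with an array left out, 7 without sample-2 array 1. With the array number as a block (replicate block) the counts were 793, 2 and 17, the 2 members being Cntnap2 and Cntn2 1435165_at (0.48, adjusted p = 0.0109) and the 17 partner genes, 6 higher and 11 lower, including L1cam, Kcna6 and Epb41l2. The labels do not say that the numbers mark a shared animal or day, and deviations of same-numbered arrays correlated at r = 0.03.

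The sign turned only with an array left out, for 7 of the 21 member probe sets, none of them called. Their differences then ran from -0.0867 to 0.35 for Ank3 1452124_at, -0.26 to 0.0273 for Cntn1 1449563_at, -0.0065 to 0.11 for Cntn1 1452981_at, -0.0903 to 0.18 for Cntn2 1456962_at, -0.19 to 0.0405 for Nrcam 1430583_at, -0.0330 to 0.0709 for Nrcam 1434709_at and -0.24 to 0.0710 for Sptbn4. The cause of these changes was not tested. The probe sets of Cntnap1 and the dimmest of Cntnap2, Cntn1 and Cntn2 lie near the filter, where small changes cannot be detected.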
